A study of Mus musculus with 12 samples.

Results

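The effect of a high-fat diet (HFD) on gene expression was examined in the arcuate nucleus (ARC) of female mice that carry the Nkx2-1-Cre driver together with loxP-flanked Esr1, the gene for oestrogen receptor alpha. Members were chosen by label alone, as the 3 libraries with genotype NkxCre and HFD against the 4 libraries with genotype NkxCre and chow, which makes 7 of the 12 libraries of the series. Mutant chow mice were kept on standard chow, and mutant HFD mice were placed on the diet at 10 weeks of age and kept on it for 17 weeks. All animals were 27 weeks old. The other 5 libraries came from control mice with the same floxed Esr1 allele and without Cre, 3 on chow and 2 on HFD, and are used here only to compare the response to diet. Nkx2-1 is active early in the ventral hypothalamus and in several other tissues, so deletion can occur in all cells with that history and is not limited to a single type of ARC neuron. The colony had a mixed CD-1;129P2 background. No source used here says whether a library came from 1 animal or from pooled tissue, so the spread between libraries may be partly technical.

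The ARC lies beside the third ventricle and the median eminence and senses circulating oestrogen, leptin, insulin and nutrients. Its neurons signal through secreted peptides, among them enkephalin, neurokinin B, neuropeptide Y and products of pro-opiomelanocortin. They are mixed with astrocytes, tanycytes (the glia that line the ventricle), oligodendrocytes, vessels and microglia, the resident macrophages of the brain. Prolonged fat feeding is known for acting on both the neurons and the glia of this region. RNA from dissected tissue holds all of these cells together, so fewer cells of a type and less RNA per cell cannot be told apart in any value given here.

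Each library holds an abundance signal for 16640 genes, close to the scale of TPM, and 15801 genes with a value of at least 1 in at least 2 libraries were tested. The sequencing depth is unknown, so the number of libraries limits the precision. The share of genes listed at 0 ran from 1.23% to 10.6% in mutant chow and from 1.21% to 6.12% in mutant HFD. Mutant chow 3 stood apart, with 1768 genes at 0 and a median Spearman rho of 0.908 with the other mutant libraries, where the remaining mutant libraries had 0.945 to 0.960. Rps7, which separated the genotypes, was at 378 to 490 in all 7 libraries labelled mutant and at 27.1 to 62.1 in the 5 control libraries. Esr1 itself went against the labels on HFD. It was 6.05, 3.15, 1.93 and 1.65 in the libraries labelled mutant chow but 10.7, 16.6 and 11.9 in those labelled mutant HFD, against 7.29 to 22.4 in the control libraries. Counted over the whole gene, Esr1 does not by itself show whether the floxed exon was removed, and every direction below rests on the labels.

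Few genes passed the test across all genes. With limma and Benjamini-Hochberg adjustment, 3 of 15801 genes (0.019%) had an adjusted p under 0.05 between mutant HFD and mutant chow, and all 3 fell. At an unadjusted p under 0.05, 849 genes (5.37%) differed, 227 higher (1.44%) and 622 lower (3.94%). The values of the 3 mutant HFD and 4 mutant chow libraries did not overlap for 1263 genes (7.99%), of which 492 were higher (3.11%) and 771 lower (4.88%). These shares are the background against which the counts below are read. The median log2 difference over all genes was -0.02. The excess of lower genes depended on scaling: quantile normalisation raised the higher share of the genes at p under 0.05 from 26.7% to 44.3% and that of the genes without overlap from 39.0% to 58.8%, whereas rescaling all columns to the same sum lowered these shares to 21.6% and 30.0%.

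**Figure D1:**
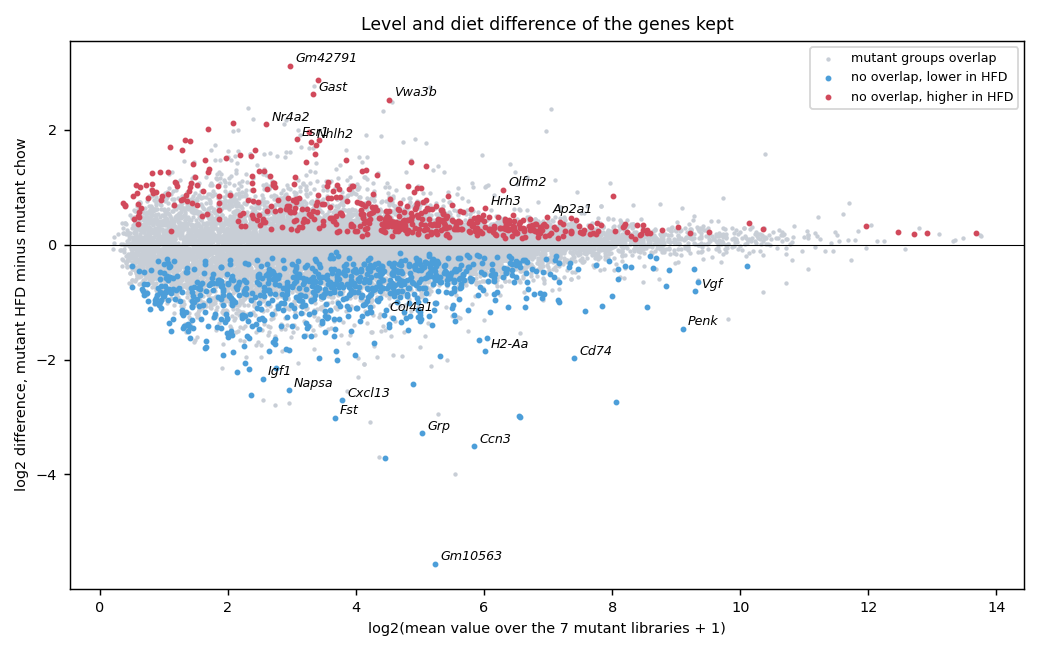
Mean level over the 7 mutant libraries, as log2(value + 1), against the log2 difference between mutant HFD and mutant chow for 15801 genes; each point is a gene. Genes whose 2 groups do not overlap are blue (771, lower in HFD) or red (492, higher in HFD), and the furthest labelled point is Gm10563 at -5.56.

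The 3 genes that fell were Ccn3, Fst and Gm10563. Ccn3 (chr15:54745702-54754039) encodes a secreted matricellular protein, and its value was 93.7 ± 38.9 (SD, n = 4) on chow against 6.95 ± 2.19 (SD, n = 3) on HFD. The control libraries were at 7.1 to 14.3. Fst (chr13:114452290-114458951) encodes follistatin, a secreted antagonist of activin, and was 19.5 ± 10.7 (SD, n = 4) on chow against 1.29 ± 0.215 (SD, n = 3) on HFD. It was 0.552 to 1.68 in the control libraries. Gm10563, a predicted gene on chromosome 4, was listed at 0 in all 3 mutant HFD libraries and at 15.5 to 124 on chow. Its exons cover only 237 bases, and in controls it was 9.86 to 37.7 on chow and 16.2 and 29.1 on HFD. The log2 differences were -3.51 for Ccn3, -3.02 for Fst and -5.56 for Gm10563, with limma adjusted p of 0.00635, 0.0366 and 0.0134. Leaving out mutant HFD 2 or mutant HFD 3 left 0 genes past the threshold, and leaving out mutant HFD 1 left Ccn3 alone.

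Among the ranked genes that were lower on HFD without overlap, several encode secreted peptides and growth factors. None of those named in the next paragraphs passed the adjusted test in the comparison of all libraries, so each is given as a value. The ranking in both directions required groups without overlap, so the lack of overlap of a ranked gene is no further support. Penk (chr4:4133531-4138819) encodes proenkephalin, the precursor of the opioid enkephalins. Its value was 659, 568, 938 and 847 in mutant chow and 296, 332 and 193 in mutant HFD. Every HFD library was below every chow library, and the HFD libraries lay in the range of the controls, at 232 to 340 on chow and 181 and 244 on HFD. The log2 difference was -1.47 ± 0.24 (SE), with an adjusted p of 0.135. Grp (chr18:65872820-65886596) encodes gastrin-releasing peptide, a bombesin-like neuropeptide. It was 26.5, 28.0, 121 and 35.8 on chow and 3.45, 3.97 and 3.01 on HFD, and 2.13 to 11.7 in the control libraries. Mutant chow 3 was far above the others, but the lowest chow library still exceeded the highest HFD library. The log2 difference was -3.29 ± 0.54 (SE), with an adjusted p of 0.135. Over the alternatives its adjusted p ran from 0.011 with limma array weights to 0.717.

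Igf1 (chr10:87858265-87937042), which encodes insulin-like growth factor 1, was 11.2, 3.79, 10.4 and 6.19 in mutant chow. It was 1.41, 0.534 and 0.225 in mutant HFD. These HFD values were low and covered much the same range as the 5 control libraries, which lay between 0.351 and 1.99. The log2 difference was -2.33 ± 0.43 (SE), with a limma adjusted p of 0.251. Igf1 was named from the growth factor list, because its mean of 4.8 over the mutant libraries was below the minimum of 5 for the ranking. Vegfa (chr17:46016993-46032369), the gene for the angiogenic factor VEGF-A, was 116, 126, 150 and 110 on chow and 53.7, 79.8 and 64.3 on HFD. The control libraries also separated by diet, at 76.2 to 110 on chow and 58.8 and 69.8 on HFD. Vgf (chr5:137026392-137033351) encodes a granin-like precursor of secreted neuropeptides. It was 640, 830, 874 and 743 on chow and 379, 519 and 423 on HFD, and in controls 495 to 705 on chow and 411 and 455 on HFD. For these last 2 genes both genotypes were lower on HFD, with log2 differences of -0.92 and -0.57 for Vegfa and -0.81 and -0.48 for Vgf in mutants and controls.

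Napsa (chr7:44572380-44586862), the gene for the aspartic protease napsin A, was 19.3, 8.17, 7.54 and 8.71 in mutant chow and 1.84, 1.496 and 0 in mutant HFD. Mutant chow 1 was highest, and no HFD library reached the chow range. An antisense gene overlaps Napsa, and because the use of strand was not stated their reads may not be separated. Cxcl13, a chemokine gene, was 61.6, 4.81, 11.7 and 6.61 on chow and 0.953, 0 and 3.68 on HFD. Mutant chow 1 was far above the next library, and the highest HFD library was just below the lowest chow library.

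Several genes for intracellular proteins were lower on HFD without overlap between the mutant groups. Eif2b2 (chr12:85219481-85226628) encodes a subunit of the guanine exchange factor of translation initiation. It was 97.9, 103, 112 and 111 in mutant chow and 53.3, 45.95 and 49.9 in mutant HFD. The spread within each group was small beside the gap, and the log2 difference was -1.08 ± 0.17 (SE) with an adjusted p of 0.122, which ran from 0.014 to 0.828 over the alternatives. Rps6ka1 (chr4:133847290-133887797), which encodes the kinase RSK1 downstream of ERK, was 15.9, 27.9, 20.8 and 26.5 on chow and 9.24, 9.40 and 9.01 on HFD. The 3 HFD libraries were nearly equal. In controls it was 11.5 to 12.7 on chow and 21.1 and 14.6 on HFD, so the 2 genotypes differed in sign. Hes5 (chr4:154960923-154962371), a transcriptional repressor induced by Notch and expressed in glial progenitors, showed the same arrangement. It was 34.2, 29.6, 71.2 and 36.1 in mutant chow and 18.8, 16.1 and 12.9 in mutant HFD, and in controls 16.9 to 23.1 on chow and 31.5 and 37.8 on HFD. Its chow group was spread widely, with mutant chow 3 far above the others. Zfyve1, which encodes a FYVE-domain protein of the endoplasmic reticulum and lipid droplets, had a log2 difference of -0.99 ± 0.21 (SE) in mutants and 0.11 in controls.

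Genes that ranked high in the other direction are described next, those for transcription factors and receptors first. Nr4a2 (chr2:57106830-57124003) encodes the orphan nuclear receptor NURR1, an immediate early gene and a factor of dopamine neurons. It was 1.77, 0.982, 2.31 and 0.751 in mutant chow and 13.2, 5.19 and 11.1 in mutant HFD. All 3 HFD libraries were higher than the highest chow library, and the log2 difference was 2.10 ± 0.38 (SE) with an adjusted p of 0.251. The control libraries were at 1.41 to 2.84 on chow and 5.20 and 3.20 on HFD. Among the 20 immediate early genes Nr4a2 was the only member at p under 0.05 and the only member without overlap. The sequence before its start is shown because this class of genes is known for cyclic AMP response elements. It is RefSeq sequence (GRCm38.p6) of the 150 bases before the start, chr2:57124004-57124153 on the minus strand, with the letters TGACG (or CGTCA, the same letters on the other strand) in capitals.
Nr4a2: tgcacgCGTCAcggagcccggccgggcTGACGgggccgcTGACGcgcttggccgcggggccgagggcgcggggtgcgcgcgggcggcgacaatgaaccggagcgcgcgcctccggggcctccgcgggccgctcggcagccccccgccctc
Within the 250 bases before the start these letters occurred 4 times on the 2 strands of Nr4a2. At least 1 match was present in 17.8% of 32851 promoter windows of that length, and the full palindrome TGACGTCA, present in 1.55%, was absent here.

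Esr1 (chr10:4611593-5005614) had the values given above, a log2 difference of 1.83 ± 0.41 (SE) and an adjusted p of 0.455. Of the 11 steroid receptor and cofactor genes kept it was the only one at p under 0.05. Nhlh2 (chr3:102010076-102015492), a basic helix-loop-helix factor of hypothalamic neurons, was 3.42, 5.24, 0.835 and 6.85 in mutant chow and 9.94, 21.9 and 13.7 in mutant HFD. No HFD library was within the chow range, and the control libraries, at 5.19 to 10.02, lay between the 2 groups with some overlap. Dlx5, a homeobox factor of GABAergic neurons, was 5.68, 5.85, 0 and 4.61 on chow and 14.7, 12.7 and 16.7 on HFD. The 0 came from mutant chow 3, the library with the most genes at 0. Adamts2 (chr11:50602084-50807573), the gene for a procollagen peptidase, was 7.01, 6.65, 1.92 and 3.48 on chow and 20.3, 14.4 and 11.4 on HFD. Its controls, at 8.42 to 10.9, lay above every chow library and below every HFD library of the mutants.

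Receptors that couple to inhibitory G proteins were among the ranked genes. Hrh3 (chr2:180099465-180104488), the histamine H3 receptor gene, was 59.2, 52.7, 48.1 and 46.01 in mutant chow and 74.4, 77.0 and 90.3 in mutant HFD. Oprl1 (chr2:181715016-181720985), which encodes the nociceptin receptor of the opioid family, was 46.4, 54.2, 39.3 and 37.1 on chow and 71.4, 73.0 and 59.4 on HFD. For both genes the groups did not overlap, which the ranking required. The log2 differences were 0.64 ± 0.15 (SE) and 0.62 ± 0.17 (SE), with limma adjusted p of 0.535 and 0.564. Of 8 opioid precursors and receptors, Penk was lower and Oprl1 higher at p under 0.05, and no other member was past it.

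Other ranked genes that were higher on HFD had smaller or less even differences. Olfm2, a secreted olfactomedin, was 56.2 ± 16.9 (SD, n = 4) on chow and 106 ± 13.4 (SD, n = 3) on HFD. Sphkap, an anchoring protein of protein kinase A, had a log2 difference of 1.03, Parm1 0.79, Cdkl2 0.64, Smn1 0.65 and Ap2a1 0.49. Pars2, a mitochondrial prolyl-tRNA synthetase gene, was 1.61 to 8.08 on chow and 9.71 to 22.97 on HFD. Gm42791, a predicted gene whose exons overlap those of its neighbours on the same strand, had the highest log2 difference by size, 3.12, with an adjusted p of 0.564. It was 0, 5.63, 0 and 0.248 on chow and 11.99, 12.8 and 16.9 on HFD, so every HFD library was above the highest chow library, mutant chow 2. Vwa3b, Ppil6 and Gast, with log2 differences of 2.52, 1.83 and 2.62, were all listed at 0 in mutant chow 3. No gene was listed at 0 in every mutant chow library and at 1 or more in every mutant HFD library, and Gm10563 was the only gene with the opposite pattern.

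**Figure D2:**
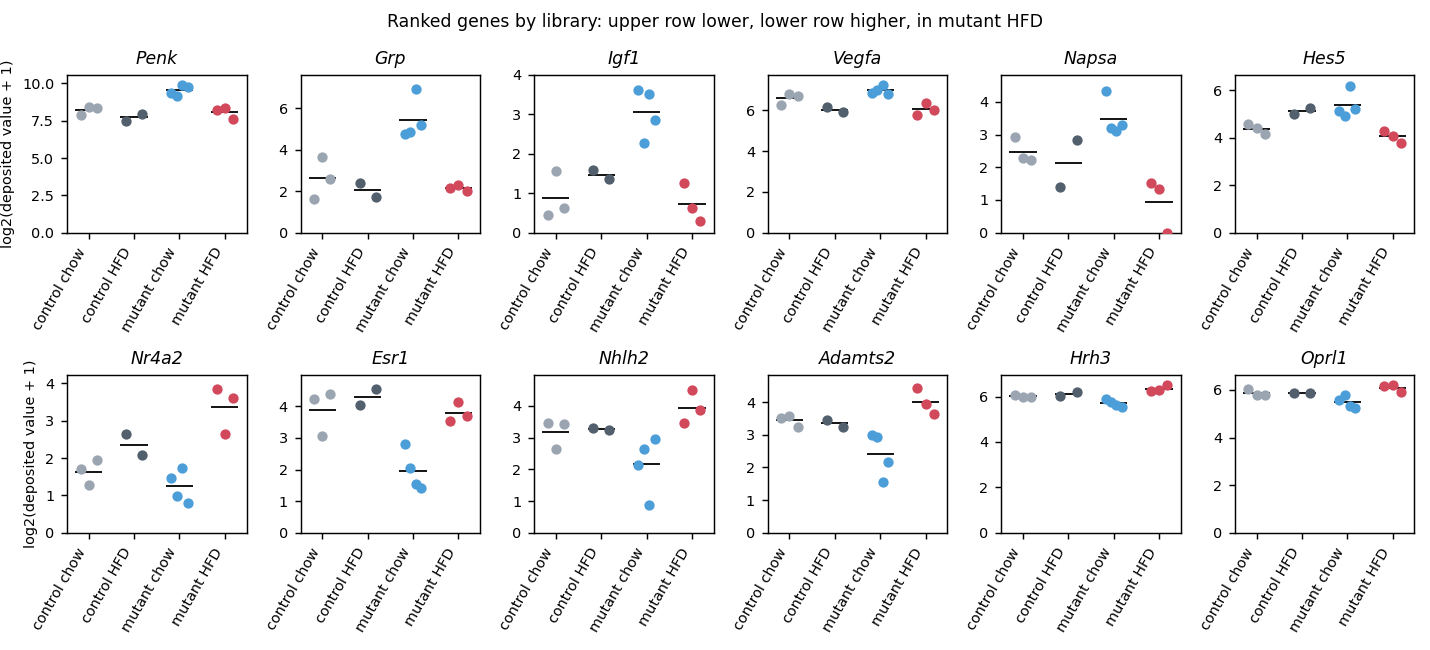
Values of 12 named genes, all ranked but Igf1, in the 12 libraries, as log2(deposited value + 1). Each point is a library and each line the mean of its group. In the upper row (Penk, Grp, Igf1, Vegfa, Napsa and Hes5) every mutant HFD library is below every mutant chow library, and in the lower row (Nr4a2, Esr1, Nhlh2, Adamts2, Hrh3 and Oprl1) every mutant HFD library is above.

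Gene lists were described next, by the number of members at an unadjusted p under 0.05, the number without overlap and the median log2 difference, each beside the background given above. The medians given for immune, collagen, glial, channel and respiratory chain lists kept their sign under both other scalings. The genes of antigen presentation stood at the lower end of all lists with 10 or more members. Of 15 members kept, 10 were lower at p under 0.05, the same number were lower without overlap, and none was higher. The median log2 difference was -1.12. They include the MHC class II chains, which display peptides to CD4+ T cells, the class I chains with beta-2-microglobulin, and the immunoproteasome and peptide transporter that supply class I. No member had an adjusted p under 0.05.

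The class II genes and their chaperone had the largest differences of the list. H2-Aa (chr17:34282744-34287823), a class II alpha chain, was 128, 51.8, 166 and 36.03 in mutant chow and 22.5, 22.96 and 18.7 in mutant HFD. Cd74 (chr18:60803848-60812652), the invariant chain that escorts class II molecules, was 290, 119, 520 and 94.3 on chow and 44.9, 58.6 and 50.2 on HFD. In both, mutant chow 1 and 3 were high, mutant chow 2 and 4 were lower, and all 4 were above the HFD libraries. The log2 differences were -1.85 ± 0.61 (SE) and -1.98 ± 0.61 (SE), with adjusted p of 0.784 and 0.724. H2-Ab1 and H2-Eb1, the other class II chains on the list, named after their values were seen, differed by -1.94 and -1.63.

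Class I genes and their partners had smaller differences. H2-D1 was 270, 268, 496 and 257 in mutant chow and 170, 168 and 162 in mutant HFD. H2-K1 was 59.3 to 155 on chow and 21.3 to 48.6 on HFD, and B2m (chr2:122147686-122153083), the shared light chain, 421 to 781 and 307 to 359. Tap2, a subunit of the peptide transporter, and Psmb8 and Psmb9, subunits of the immunoproteasome, had log2 differences of -1.33, -1.25 and -1.12. The H2 genes are polymorphic and closely alike, and the mice were of mixed background, so reads may be assigned differently between animals. Of the 9 members that are not H2 genes, 5 (B2m, Cd74, Tap2, Psmb8 and Psmb9) were lower at p under 0.05. Of these 5, B2m and Cd74 lie on other chromosomes than the H2 genes, whereas Tap2, Psmb8 and Psmb9 lie among them. The part of the mixed background in these values was not tested.

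Promoters of these genes share a known layout of short elements, and those of H2-Aa, H2-Eb1, H2-D1 and B2m are shown because class II and class I genes were lower together. Of the 15 members, 10 had an entry in the RefSeq promoter table. Each sequence is the 150 bases before the start (RefSeq, GRCm38.p6), 5′ to 3′ on the strand of the gene, and the capitals mark TGANG followed by ATTGG with 18 to 22 bases between them, a pair chosen after the sequences were seen. The positions are chr17:34287824-34287973 (minus strand), chr17:34305717-34305866 (plus), chr17:35262944-35263093 (plus) and chr2:122147537-122147686 (plus).
H2-Aa: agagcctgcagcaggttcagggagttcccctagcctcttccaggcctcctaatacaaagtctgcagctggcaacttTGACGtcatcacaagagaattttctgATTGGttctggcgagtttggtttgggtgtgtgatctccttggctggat
H2-Eb1: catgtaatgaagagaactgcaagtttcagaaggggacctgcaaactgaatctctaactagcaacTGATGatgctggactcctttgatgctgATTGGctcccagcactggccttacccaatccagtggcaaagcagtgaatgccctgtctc
H2-D1: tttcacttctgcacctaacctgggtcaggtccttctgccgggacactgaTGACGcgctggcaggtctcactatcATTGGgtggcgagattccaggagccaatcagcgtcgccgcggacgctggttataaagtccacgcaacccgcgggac
B2m: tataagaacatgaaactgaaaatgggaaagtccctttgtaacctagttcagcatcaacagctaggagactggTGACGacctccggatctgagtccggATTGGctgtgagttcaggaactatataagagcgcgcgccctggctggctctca
The pair began 74 bases before the start in H2-Aa, 86 in H2-Eb1, 101 in H2-D1 and 78 in B2m, with 21, 22, 20 and 20 bases between its parts. H2-K1 held it too, with 20 bases between. On the gene's strand it was present in 5 of the 10 genes with an entry and in 0.694% of all 32851 promoter windows of 250 bases. The separate letters are common: TGACG was present in 17.8% and CCAAT, the other strand of ATTGG, in 33.8% of windows. The palindromic oestrogen response element was present in 0.0639% of windows and in none of the list's entries, and it is too rare for that absence to be informative. Both strands were searched for each of these letters. A match is a description of letters and not a measured site.

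Markers of other leukocytes were low. Of 7 border macrophage and lymphocyte genes measured, 6 were kept, and their summed value was 4.45 to 23.7 in mutant chow and 4.90 to 17.4 in mutant HFD. None of the 6 was lower without overlap. The T cell gene Cd3e, named after its values were seen, was 3.71, 0.0355, 18.4 and 1.44 in mutant chow and 0.317, 0.334 and 0.714 in mutant HFD, so its highest value was in mutant chow 3, the library that was also highest for Cd74 and H2-D1. Its part in the antigen presentation values was not tested. Without mutant chow 3, 7 of the 15 members were at p under 0.05, and without both mutant chow 3 and mutant HFD 3 there were 3.

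Interferon response genes were lower in the same libraries. All 20 members kept had a log2 difference below 0, with a median of -0.66, 6 were lower at p under 0.05 and 10 were lower without overlap. Irf9, a subunit of the complex that type I interferon activates, was 36.8, 24.8, 41.5 and 32.6 in mutant chow and 18.7, 16.4 and 17.8 in mutant HFD. The groups were separate, with the chow group the more variable. Among the effector genes Xaf1, Bst2 and Oasl2 had log2 differences of -1.40, -1.14 and -1.23, and only Oasl2 of these had groups that overlapped.

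Microglial genes differed by less but with tight groups. Of 21 members kept, 9 were lower at p under 0.05 and without overlap, none was higher, and the median log2 difference was -0.43. Their summed value was 1089 to 1129 in the 4 mutant chow libraries and 638 to 782 in the 3 mutant HFD libraries. The chow sums thus lay within a narrow band that no HFD library reached. Ctss (chr3:95526786-95556403), the gene for the lysosomal protease cathepsin S that trims the invariant chain, was 200, 185, 167 and 173 in mutant chow and 81.8, 81.7 and 111 in mutant HFD. In controls it was 76.7 to 131 on chow and 81.5 and 97.6 on HFD, so mutant HFD lay in the control range and mutant chow above it. C1qc (chr4:136889804-136893065), a chain of the first complement component, was 86.5, 97.7, 88.2 and 86.5 on chow and 50.1, 47.1 and 40.6 on HFD. Its controls were at 45.8 to 81.2 on chow and 46 and 63.9 on HFD. The log2 differences of Ctss and C1qc in mutants were -0.99 ± 0.19 (SE) and -0.95 ± 0.21 (SE), and the limma adjusted p were 0.297 and 0.444.

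Most other microglia genes had log2 differences in the same direction, 19 of 21 being below 0. C1qa differed by -0.96, C1qb, named after its value was seen, by -0.85, Csf1r, the receptor for colony-stimulating factor 1, by -0.68 and Selplg by -0.61. Csf1r was 44.4, 49.2, 59.0 and 48.6 on chow and 24.5, 33.8 and 35.0 on HFD, without overlap. Not all surface receptors separated the groups. P2ry12, the purinergic receptor of resting microglia, was 12.6, 22.3, 64.5 and 28.1 on chow and 21.5, 19.5 and 44.1 on HFD, with a log2 difference of -0.02, and Cx3cr1, the fractalkine receptor, was 21.05 to 32.6 on chow and 15.5 to 21.6 on HFD. C4b, the gene for complement component 4 and not on the microglia list, was 113, 140, 118 and 141 on chow and 66.4, 61.3 and 51.9 on HFD, and in controls 83.0 to 174 on chow and 60.03 and 60.08 on HFD. Lysosomal genes were less uniform: of 22 members 6 were lower without overlap and 2 at p under 0.05, the protease gene Ctsh at -1.28 and Tfeb, the master factor of lysosomal genes, at -1.24.

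Of 15 inflammatory genes kept, 4 were lower at p under 0.05 and none was higher, with a median log2 difference of -0.45. Under quantile normalisation, or with all columns rescaled to the same sum, only 1 of the 15 was lower at p under 0.05. Leaving out any single library gave 1 to 3, with 1 without mutant chow 3, mutant HFD 1, mutant HFD 2 or control chow 1. Icam1 (chr9:21015985-21028817), a leukocyte adhesion molecule gene, was 6.13, 5.21, 9.41 and 5.12 in mutant chow and 3.13, 1.30 and 1.73 in mutant HFD. Its groups did not overlap, and the control libraries separated by diet as well, at 3.04 to 6.16 on chow and 2.22 and 2.62 on HFD. Tlr2, Nfkb1 and Tgfb1 had log2 differences of -0.65, -0.73 and -0.64. For Nfkb1 a single chow library, mutant chow 3 at 53.1, was far above the others at 18.4 to 19.4.

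**Figure D3:**
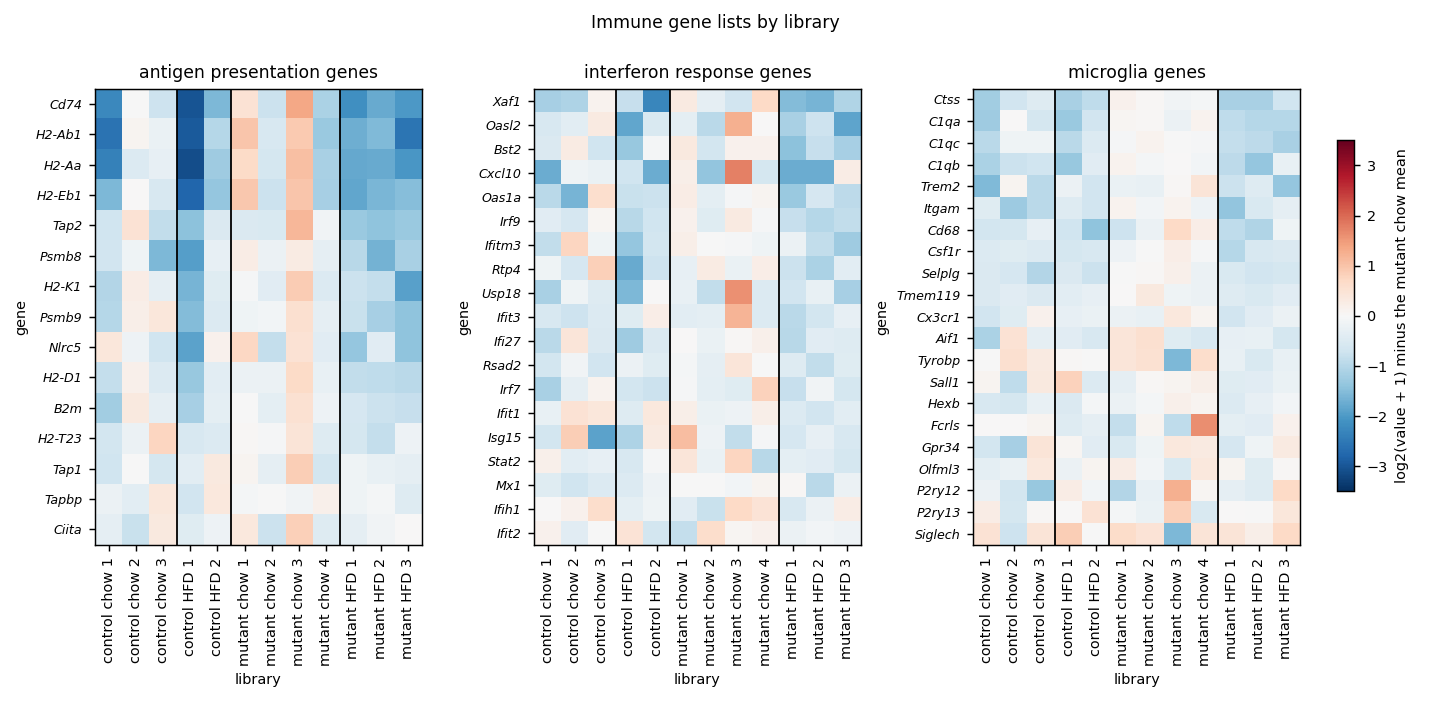
Values of the antigen presentation (15), interferon response (19 of 20 drawn) and microglia (21) genes in 12 libraries; colour is log2(value + 1) minus the mean of the 4 mutant chow libraries, blue lower and red higher, with genes sorted by their mutant diet difference. The 3 mutant HFD columns are mostly blue in all panels, control HFD 1 is the bluest column for class II genes, and mutant chow 3 is the reddest for many genes of the first 2 panels.

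Collagen genes had mostly negative differences. Of 42 kept, 37 had a log2 difference below 0, 7 were lower and none higher at p under 0.05, 6 were lower and 1 higher without overlap, and the median was -0.43. Col4a1 (chr8:11198423-11312826), the main collagen of vascular basement membranes, was 27.9, 22.9, 33.0 and 26.7 in mutant chow and 12.1, 14.2 and 8.18 in mutant HFD. The lowest chow library was well above the highest HFD library, and the log2 difference was -1.22 ± 0.29 (SE) with an adjusted p of 0.564. Col9a3 was 12.6, 30.1, 20.6 and 30.1 on chow and 11.96, 7.30 and 10.8 on HFD, with a small gap. Col1a1, a fibrillar collagen and also on the meningeal fibroblast list, differed by -0.81, Col27a1 by -1.25 and Col24a1 by -1.04. Without mutant HFD 1, 4 collagens were at p under 0.05. Leptomeningeal fibroblast markers, which can enter a dissection, had a median of -0.52 and 2 of 12 members lower without overlap, and their summed value was 1462 to 2615 on chow and 713 to 1618 on HFD. Endothelial markers had none of 16 members without overlap and mural cell markers 1 of 10. The part of these tissues in the collagen values was not tested.

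In activin, BMP and TGF-beta signalling, to which Fst belongs, 40 members were kept, 5 were lower and 1 higher at p under 0.05, and the median log2 difference was 0.05. The lower members were Fst, the ligand genes Bmp2 and Tgfb1 and the receptor genes Tgfbr2 and Acvr1c. Leaving out mutant chow 3 or any 1 of the mutant HFD libraries left 3 of them at p under 0.05. Tgfbr2, the type II receptor for TGF-beta, was 9.40, 9.60, 9.02 and 9.63 in mutant chow and 4.67, 5.42 and 3.63 in mutant HFD, with no overlap and an almost constant chow group. Bmp2 was 2.88 to 5.25 on chow and 1.19 to 2.33 on HFD. Inhbb, which encodes the beta B subunit of activin and inhibin, went in the other direction at 2.26, 4.47, 5.06 and 5.24 on chow and 4.23, 9.68 and 17.2 on HFD, with overlap. In the CCN family of matricellular proteins, 3 were kept and Ccn3 was the only one at p under 0.05.

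Glial lists differed from each other. All 12 tanycyte genes had a log2 difference below 0, with a median of -0.42, and 3 were lower at p under 0.05, among them Nes, an intermediate filament gene, and Dio2, the gene for the deiodinase that activates thyroid hormone. Only 1 of the 12 was lower without overlap, and Dio2 was 23.6 to 36.2 in mutant chow and 8.13, 16.1 and 31.3 in mutant HFD. Without mutant chow 3, mutant HFD 1 or mutant HFD 2 none of the 12 was at p under 0.05 and without mutant chow 4 1 was, and without mutant chow 3 the median was -0.25. Astrocyte genes had a median of -0.02, with 2 of 16, Vim and the secreted lipocalin gene Lcn2, lower at p under 0.05 and none without overlap, and without mutant HFD 1 neither was. Of 15 oligodendrocyte and myelin genes 14 were below 0, with a median of -0.63, yet their summed value overlapped between groups, at 2125 to 6473 on chow and 2208 to 3102 on HFD. The only member past p under 0.05 was Trf, the transferrin gene, at 156, 375, 182 and 284 on chow and 135, 122 and 69.1 on HFD. This count turned on single libraries: 9 of the 15 were lower at p under 0.05 without mutant chow 1, with a median of -0.94, and none without mutant HFD 3. The mean log2 level of the list, centred on all libraries, ran from -0.62 to 0.92 on chow and from -0.32 to -0.18 on HFD. With an oligodendrocyte score as covariate, the same 3 genes passed the adjusted test across all genes.

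Neuronal receptor and synaptic vesicle lists leaned the other way by small amounts, while the counts of potassium, sodium and calcium channels were near or below the background. Of 20 GABA and glycine receptor subunits kept, 19 had a log2 difference above 0, 4 were higher without overlap and none was at p under 0.05, with a median of 0.26. Of 26 receptors for monoamines and peptides, 3 were higher and none lower at p under 0.05, namely Hrh3, Oprl1 and Sstr2, which encodes a somatostatin receptor. Without mutant HFD 2 or mutant HFD 3 only 1 was. Of 71 potassium channel genes, 6 were higher without overlap and none lower (8.45%, against 7.99% of all genes). At p under 0.05 2 were higher (Kcnk12 and Kcng1) and 1 lower (Kcnh8), or 4.2% against 5.37% of all genes. Of 19 synaptic vesicle genes 17 were above 0, with a median of 0.18 and none at p under 0.05. Scn3b, a sodium channel beta subunit gene, was 34.8, 40.7, 32.0 and 34.0 in mutant chow and 50.1, 44.8 and 57.3 in mutant HFD. It was the only one of 34 sodium and calcium channel genes past p under 0.05. Of these 34 genes, 19 were above 0 and 15 below, and 2.94% were without overlap.

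Respiratory chain genes had medians slightly above 0, with fewer members at p under 0.05 than the background. Of 13 mitochondrially encoded genes 12 were above 0 and 5 were higher without overlap, but none was at p under 0.05, and the median was 0.19. Their summed value was 77212 to 91072 on chow and 89641 to 113950 on HFD, a small overlap. Of 79 nuclear subunits 65 were above 0, with a median of 0.21, 3 higher without overlap and 1, Ndufv2, at p under 0.05. Without mutant chow 3 that median was 0.044 and no subunit was at p under 0.05. Cytosolic ribosomal proteins had a median of 0.10, with 69 of 83 above 0 and 3 lower at p under 0.05, of which none was left without mutant HFD 3. Of these Rpl29 was 298 and 311 in mutant chow 1 and 2 and 2.81 to 9.09 in the other 5 mutant libraries, and it has many near-identical copies, so its values are uncertain.

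Lists of genes that control feeding and reproduction were short, and few members of each were at p under 0.05. As shares these were 13.3% (feeding), 11.1% (KNDy) and 17.65% (hypophysiotropic and dopamine), above the 5.37% of all genes. The shares without overlap were 6.67%, 11.1% and 5.88%, against 7.99% of all genes. Of 15 feeding peptides and receptors, Npy was lower and Mc4r higher at p under 0.05. Npy, the orexigenic neuropeptide Y gene, was 802, 1045, 1378 and 1479 in mutant chow and 924, 285 and 382 in mutant HFD, with overlap through mutant HFD 1. Mc4r, the melanocortin 4 receptor gene, was low throughout, at 0 to 1.79 on chow and 1.17 to 5.46 on HFD. Of 9 KNDy neuron genes kept, Tacr3, the neurokinin B receptor gene, was higher at p under 0.05. Its ligand gene Tac2 was 1026, 653, 670 and 716 on chow and 529, 601 and 344 on HFD, without overlap and with an adjusted p of 0.924. Kiss1 was not analysed here. Among 17 hypophysiotropic and dopamine neuron genes Gnrh1 and Drd2 were higher and Nts lower at p under 0.05, and the groups of all 3 overlapped. Markers of neighbouring nuclei varied widely, with a summed value of 534 to 5245 in mutant chow and 1827 to 3982 in mutant HFD. Of the 15 kept, 1 was higher at p under 0.05 and 0 were without overlap. Among them Avp, the vasopressin gene, was 77.3 to 3052 on chow and 677 to 2553 on HFD. The part of neighbouring tissue in the neuronal and peptide values was not tested.

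Metabolic and stress lists had few members at p under 0.05. Of 22 sterol genes 3 were higher and 1 lower without overlap (18.2%, above the background), 1 was higher at p under 0.05, and the median was 0.19 in mutants and 0.20 in controls. Of 17 fatty acid synthesis genes Mlxipl was lower, and of 17 oxidation and ketone genes Hadhb was higher, at p under 0.05. Of 23 leptin and insulin signalling genes only Akt2 was past p under 0.05, at -0.68, while 1 was higher and 2 lower without overlap. Of 19 clock genes Npas2 was the only one, at -1.42, with 5.93, 20.1, 7.21 and 16.8 in mutant chow and 3.26, 2.07 and 6.05 in mutant HFD. Of 18 ER stress genes Ddit3 was lower and of 12 heat shock genes none was past it.

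**Figure D4:**
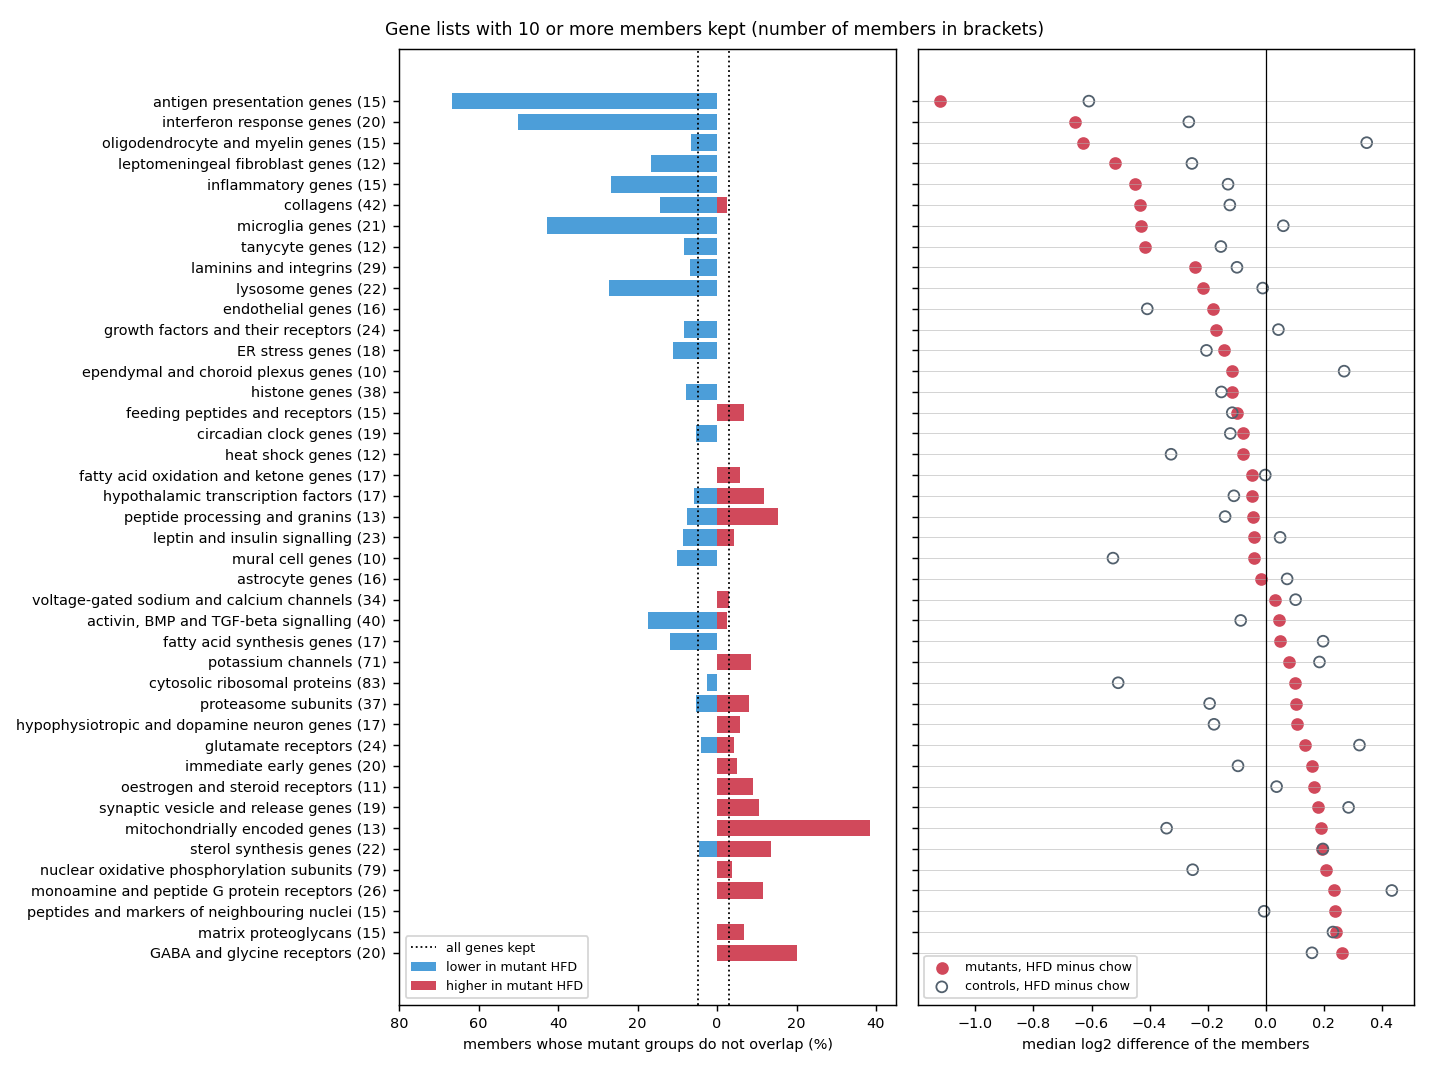
Gene lists with at least 10 members kept, sorted by the median log2 difference in mutants. Bars on the left give the percentage of members whose mutant groups do not overlap, lower (blue) or higher (red), with dotted lines at 4.88% and 3.11% for all genes; points on the right give the median log2 difference for HFD minus chow in mutants (filled) and controls (open), with antigen presentation at -1.12 in mutants.

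Whether the response to diet differed between genotypes was tested as an interaction. No gene had an adjusted interaction p under 0.05 (0%), and 543 (3.44%) were at an unadjusted p under 0.05, 247 with a more positive difference in mutants (1.56%) and 296 with a more negative difference (1.87%). In controls no gene differed between HFD and chow at an adjusted p under 0.05, 560 (3.54%) were at an unadjusted p under 0.05, and with only 2 control HFD libraries these estimates were less precise. Diet effects in mutants and controls rest on separate libraries. Over 15801 genes their log2 differences had a Pearson r of 0.0766 and a Spearman rho of 0.107, given as a description across genes, which are not independent. Of the genes without overlap in mutants, 41 were also higher and 89 also lower without overlap in controls, and 62 went the opposite way. In controls alone 998 genes (6.32%) were higher and 1226 (7.76%) lower without overlap.

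The lists can be read side by side in the 2 genotypes. Antigen presentation genes had a median log2 difference of -1.12 in mutants and -0.61 in controls, and none of the 15 was at an interaction p under 0.05. Interferon genes had -0.66 and -0.26, again with none of 20. Microglia genes had -0.43 in mutants and 0.06 in controls, with 3 of 21 at an interaction p under 0.05, and oligodendrocyte genes -0.63 and 0.35, with 3 of 15. Collagens had -0.43 and -0.12, with 4 of 42. Ribosomal proteins had 0.10 and -0.51, with 3 of 83, and nuclear respiratory chain subunits 0.21 and -0.25, with 5 of 79. No member of these lists passed the adjusted interaction test, so no list is shown to respond to diet in mutants alone.

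The interaction is the mutant difference minus the control difference. By definition it is large for genes named for a large mutant difference whose controls moved little or in the other direction. The interaction estimates were -3.56 for Ccn3, -5.90 for Gm10563 and -3.09 for Fst, with adjusted p of 0.556, 0.626 and 0.999. They were -2.93 for Igf1, -2.07 for Hes5 and -1.67 for Rps6ka1, each with an adjusted p of 0.999. Grp, Penk and Nr4a2 had -2.71, -0.99 and 1.39. For Vegfa, Vgf and C4b the estimates were -0.35 ± 0.29 (SE), -0.33 ± 0.28 (SE) and -0.26 ± 0.36 (SE).

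**Figure D5:**
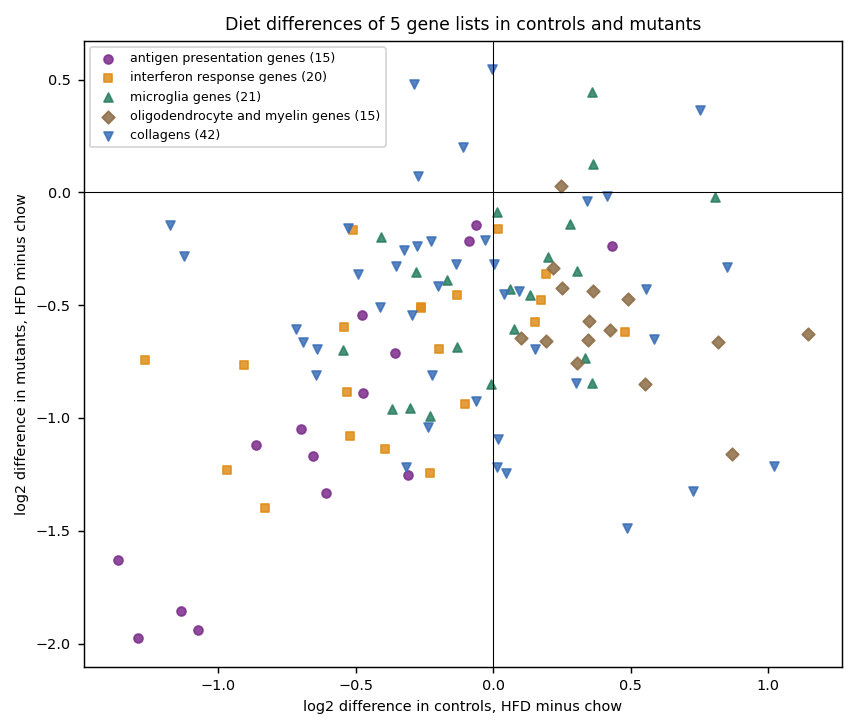
Log2 difference between HFD and chow in controls (horizontal axis) against that in mutants (vertical axis) for the members of 5 lists; each point is a gene and the numbers in brackets give the members. All antigen presentation and interferon genes lie below 0 in mutants, and 14 of the 15 oligodendrocyte genes lie below 0 in mutants and above 0 in controls.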

How the data were processed

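Total RNA from microdissected ARC of 12 libraries in 4 groups was sequenced by the authors from NEBNext Ultra II libraries on a NovaSeq instrument. The deposited values are an abundance signal per gene made by the authors with kallisto in gene mode on mm10 and sleuth; tool versions, annotation, gene filter, strand and scaling between libraries are not given in the sources used here. Column totals ran from 922172 to 1254999, the values are not multiples of 1 read, and depth is unknown. Symbols and positions came from GENCODE M21 (GRCm38) for 16633 of 16640 genes.

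Values were transformed as log2(value + 1), genes at 1 or more in at least 2 libraries were kept (15801), and limma 3.58.1 (R 4.3.3) with a mean-variance trend and 1 mean per group over all 12 libraries gave the contrasts, with Benjamini-Hochberg adjustment over all genes kept. All p-values are two-sided, and a fold change of a low gene is understated by the pseudocount. On data simulated for mutant HFD against mutant chow with 15801 genes, 14 of 50 genes changed 2-fold were called, 42 of 50 changed 4-fold and 48 of 50 changed 8-fold. There were 8 false calls among 15601 unchanged genes. The changed genes were drawn from those with a higher mean level, and each library had independent normal noise without an outlying library. These rates need not hold for the deposited data. There Grp and Igf1, with log2 differences of -3.29 and -2.33, did not pass the adjusted test.

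Named genes were those called, up to 15 in each direction by lowest p (protein-coding, mean of at least 5, no overlap) and 8 by size, the first 2 members and 5 lowest p of each list, and genes at 0 in 1 group. Members and lists were chosen with earlier results of these data known. List counts use unadjusted p and non-overlap of the mutant groups. No list was tested as a set. A few list members counted with their lists are not reported here by name. Promoters came from the RefSeq table of GRCm38.p6. Alternatives changed the scaling, filter, pseudocount, covariates, weights and libraries.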

Additional observations from a re-analysis of the deposited data

Results flagged for a closer look

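A single library lay far from the other 3 mutant chow libraries in 11 of 101 measures checked (97 of the genes named in the text and 4 summed lists). The nominal rate of 1 in 20 holds for independent, normally distributed values. These genes were chosen from the same libraries and checked on the untransformed scale, so that rate need not apply. Of the 11 measures flagged, 6 were in mutant chow 3, 3 in mutant chow 1 and 2 in mutant chow 2. In each of them the flagged library was the highest. The measure was the gap to the nearest library as a share of the whole range of the group, read against the 95% critical value of Dixon's test for 4 samples.

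In mutant chow 3 the share was 0.902 for Grp (121 against 26.5 to 35.8), 0.844 for Hes5 (71.2 against 29.6 to 36.1) and 0.946 for H2-D1 (496 against 257 to 270). It was 0.855 for Tap2 (126 against 38.6 to 51.3), 0.973 for Nfkb1 (53.1 against 18.4 to 19.4) and 0.925 for Col27a1 (28.9 against 8.98 to 10.5). This library also had the most genes at 0. In mutant chow 1 the share was 0.900 for Napsa (19.3 against 7.54 to 8.71), 0.831 for Tac2 (1026 against 653 to 716) and 0.879 for Cxcl13 (61.6 against 4.81 to 11.7). In mutant chow 2 it was 0.850 for C1qc (97.7 against 86.5 to 88.2), a gap that is small beside the difference to the HFD libraries, and 0.956 for Gm42791 (5.63 against 0 to 0.248). No gene passed the adjusted test for a different response to diet in the 2 genotypes.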

How the results depend on the processing

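There were 23 alternatives, 22 listed with the design and 1 added after seeing the data (leaving out both mutant chow 3 and mutant HFD 3). The direction of the same 97 named genes was kept in all but 10 of 2219 values, but much of this was fixed in advance. Leaving out a control library, the trend or the filter, or using only the mutants, cannot change a mutant difference. A gene whose mutant groups do not overlap cannot change sign when a single mutant library is left out. The log2 difference of Rps7 moved to 0.081 with the oligodendrocyte score and to 0.016 with both libraries left out, and that of Nkx2-1 to 0.014 in the latter. That of P2ry12, close to 0, moved to 0.049 with quantile normalisation, 0.052 with array weights, 0.030 with the oligodendrocyte score and 0.033 with both libraries left out, and ran from -0.38 to 0.39 when each library was left out in turn. The count of genes that passed the adjusted test, 3, became 0 with only the mutant libraries, 9 with array weights and 0 with both libraries left out, and ran from 0 to 4 when each library was left out in turn. Every gene called under any alternative was lower on HFD.

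Genes at p under 0.05 became 379 higher with quantile normalisation and 401 with the residual component, 443 higher and 945 lower with array weights, and 123 higher and 389 lower with both libraries left out. Leaving out single libraries gave 142 to 294 higher and 411 to 683 lower. Genes without overlap became 753 higher with quantile normalisation and, with both libraries left out, 1457 higher and 2159 lower, since fewer libraries overlap less; leaving out single libraries gave 492 to 1344 higher and 771 to 1435 lower. The interaction gained 1 gene with a pseudocount of 0.1, 1 with the residual component and 0 to 1 without single libraries. Its count at p under 0.05 was 843 with the residual component and 440 to 784 without single libraries. Controls gained 1 gene with the residual component, and their count at p under 0.05 was 353 with array weights and 466 to 1171 without single libraries. Collagens lower at p under 0.05 became 4 with a mean of at least 5, 3 with both libraries left out and 4 to 10 without single libraries, and antigen presentation genes 3 with both left out and 7 to 11 without single libraries. The cause was not tested for the moves not explained by fewer samples or genes.

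No paired analysis was possible because the labels carry no replicate numbers, and the running number in each column name is tied to no litter, batch or day in the sources used here. Depth is unknown, so no detection limit can be given for low genes such as Igf1 or Mc4r. Most genes changed 2-fold were missed in the simulation at this sample size.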
